A study of Mus musculus with 18 samples.

Results

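Complement-high macrophages of the scaffold were cell barcodes selected on their own transcripts for C1q, the recognition molecule of the classical complement pathway. A barcode was a member when it held 3 or more UMIs (unique molecular identifiers, each marking 1 captured transcript) of C1qa, C1qb and C1qc together and showed at least 2 of the 3 chains. In all, 1657 of 7082 kept scaffold barcodes met this gate, or 23.4%. The same gate took 29 of 6105 lung barcodes (0.475%) and 58 of 6574 spleen barcodes (0.882%). The 3 C1q genes therefore chose the cells, and their levels are given below as a description only.

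C1q is assembled from chains A, B and C, and macrophages are its main source in the body. It binds antibody complexes and dying cells, starts the classical cascade through the proteases C1r and C1s, and helps phagocytes take up debris without lysis. Tissue macrophages that make much C1q often also make apolipoprotein E (Apoe), a carrier of cholesterol out of lipid-laden cells, and the mannose receptor Mrc1 (CD206), an endocytic lectin. An implanted biomaterial draws in monocytes that turn into macrophages in the foreign-body response.

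The 3 chain genes lie side by side on mouse chromosome 4 (RefSeq, GRCm38.p6): C1qb at chr4:136880126-136886200, C1qc at chr4:136889801-136892936 and C1qa at chr4:136895916-136898844. Apoe lies at chr7:19696244-19701310 and Mrc1 at chr2:14229414-14332023. Since the gate reads these neighbouring genes together, up to 250 bases before the annotated gene are shown for the pair of chains found in the RefSeq promoter table, C1qb (chr4:136886201-136886450, minus strand) and C1qc (chr4:136892937-136893164, minus strand), 5′ to 3′ along the gene. Capitals mark GAGGAA, the box read by the myeloid factor PU.1, and TGCTGA, a half-site of MAF proteins, each searched on both strands.
C1qb: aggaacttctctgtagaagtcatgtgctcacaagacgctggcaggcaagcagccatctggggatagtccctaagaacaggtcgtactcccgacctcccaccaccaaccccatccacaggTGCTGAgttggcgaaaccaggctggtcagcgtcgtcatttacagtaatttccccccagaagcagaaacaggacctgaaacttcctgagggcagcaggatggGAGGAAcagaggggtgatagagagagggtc
C1qc: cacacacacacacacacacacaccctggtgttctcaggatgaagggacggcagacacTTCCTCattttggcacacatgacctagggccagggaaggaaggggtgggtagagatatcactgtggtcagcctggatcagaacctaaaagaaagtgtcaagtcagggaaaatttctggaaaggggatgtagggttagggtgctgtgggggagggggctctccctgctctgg
The PU.1 box began 30 bases before the start of C1qb and, on the other strand, 171 bases before the start of C1qc, while the MAF half-site began 131 bases before the start of C1qb. Of 32851 promoter windows of 250 bases in the table, 23.3% held the PU.1 box and 16.1% the MAF half-site, so matches to these letters are common.

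The mice were female BALB/cJ animals, 9, 10 and 11 weeks old at days 7, 14 and 21. Tumour-bearing mice had been given 2000000 4T1-tdTomato-luc2 cells, a marked mouse mammary carcinoma line, in the fourth right mammary fat pad that many days earlier, and healthy mice had been given no tumour cells. Both statuses carried scaffold implants, and 1 Drop-seq library was made per status and day, 6 scaffold libraries in all. The labels give neither the scaffold material nor the number of animals in a library, so the p-values below reflect only how far these libraries scatter, and no test is given within 1 day. Day, age and library preparation cannot be told apart.

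The gated barcodes held 6777127 UMIs. Their median was 4194.5, 2598 and 3016 UMIs in the tumour libraries of days 7, 14 and 21, and 3665, 1213 and 2697 in the healthy ones, against 761 to 1212 in the other barcodes of the same libraries. Between 1.14% and 31.2% of the scaffold barcodes of a library were removed because another library of the day held the same barcode, the highest share in the healthy library of day 21. No gated barcode remained in both scaffold libraries of a day. In the healthy lung and spleen libraries of day 21 the removed share was 77.2% and 94.7%. In the tumour libraries of day 21 this step took the gated barcodes from 64 to 2 in lung, from 48 to 8 in spleen and from 248 to 222 in scaffold. The lung and spleen counts above therefore depend on it. Of the 1657 members, 275 had a barcode also found in another library of the day. Of these, 141 lay in the healthy library of day 21. Of the gated barcodes, 339 (20.3%, 41.4% and 49.1% in the tumour libraries and 15.9%, 9.71% and 6.58% in the healthy ones at days 7, 14 and 21) also held 3 or more UMIs from at least 2 marker genes of neutrophils, lymphocytes, mast cells, fibroblasts or endothelium. This count was not matched for depth, and a barcode with more UMIs reaches it more easily. No doublets were removed. As a measure of free C1q RNA, the gate took 2 of 115 barcodes with 2 or more CD3 UMIs. It also took 2 of 1046 with 5% or more of their UMIs from S100a8 and S100a9, the calprotectin genes of neutrophils. Any C1q UMI was seen in 0% to 16.7% of these CD3 barcodes and 0% to 10.2% of these calprotectin barcodes per library. Among all kept barcodes the range was 25.1% to 42.3%. These counts do not measure free RNA of other cells in the members.

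Within the gate the proportions of the 3 chains were much the same in all 6 libraries. C1qa made up 40.8% to 48.2% of the C1q UMIs, C1qb 25.1% to 28.9% and C1qc 25.6% to 31.4%, and all 3 chains were seen in 69.9% to 87.4% of the members. C1q took 0.362%, 0.361% and 0.613% of all UMIs in the tumour libraries of days 7, 14 and 21 and 0.286%, 0.702% and 0.511% in the healthy ones. The healthy libraries of days 7 and 14 lay at the ends of this range. A member held a median of 8 to 17 C1q UMIs and at most 204.

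The members matched the label of macrophages. Apoe was at 14655, 16991 and 39486 CPM (UMIs per 1000000 UMIs of the summed members) in the tumour libraries of days 7, 14 and 21 and at 11601, 21966 and 25832 CPM in the healthy ones, against 3176 to 4807 CPM in the other barcodes. Mrc1 was at 960, 813 and 1404 CPM in the tumour libraries and 718, 558 and 1085 CPM in the healthy ones, against 45.0 to 204 CPM in the other barcodes. For both genes, the lowest library of the members lay above the highest of the other barcodes. These contrasts follow from a gate on genes of the same cells and carry no test.

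The other genes of the macrophage list were read in the same way. In the members Ms4a7, a membrane protein of macrophages, was 6.70 times its level in the other barcodes, Emr1 (Adgre1, a macrophage adhesion receptor) 3.81 times, the transcription factor Maf 3.69 times, and Mertk, a receptor for dying cells, 3.10 times. The Fc receptor gene Fcgr1 stood at 2.62 times, Aif1 at 2.20 times, Csf1r (the receptor for the macrophage growth factor) at 1.71 times, the lysosomal gene Cd68 at 1.68 times and Lyz2 (lysozyme) at 1.38 times. Each of these genes was higher in the members in 6 of 6 libraries. Cd14, the lipopolysaccharide co-receptor, was lower in the members in every library, at 0.578 times the level in the other barcodes.

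Members just inside the gate, with 3 C1q UMIs (148 barcodes), had 9009 CPM of Apoe and 354 CPM of Mrc1. The 249 barcodes just outside it, with 2 C1q UMIs, had 7276 and 205 CPM. Barcodes without a C1q UMI were at 3160 and 85.1 CPM, and the 939 members with 10 or more were at 24210 and 1157 CPM. The gate therefore cuts a gradient, and 35 barcodes with 3 or more UMIs of a single chain stayed outside it at 7188 and 321 CPM. S100a8 went the other way, from 12990 CPM without C1q to 238 CPM at 3 C1q UMIs.

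Among 1663 genes at 100 CPM or more in the summed members, 375 were higher than in the other barcodes in 6 of 6 libraries and 216 were lower in 6 of 6. Apart from C1q, the highest ratio was that of Ccl8, a chemokine for monocytes and T cells, with 1212 to 3780 CPM in the members and 18.1 to 102 CPM elsewhere, 34.2 times higher over all libraries. Next came Cbr2 (carbonyl reductase, 13.8 times), Gas6 (a bridge between dying cells and Mertk, 9.49 times), Mrc1 (8.62 times), Stab1 (stabilin, a scavenger receptor, 8.54 times) and Sepp1 (Selenop, the selenium carrier, 8.53 times). Folr2 (folate receptor beta, 7.51 times), Hpgds (prostaglandin D synthase, 5.31 times), Wwp1 (a ubiquitin ligase, 5.29 times), Pmp22 (4.83 times), Fcgrt (the neonatal Fc receptor, 4.32 times), Pf4 (platelet factor, 3.98 times) and Itsn1 (3.85 times) followed. The genes of highest mean CPM in the members outside ribosomal and mitochondrial ones were Lyz2, Apoe, Malat1, Actb, Ctss, Ftl1, Fth1, Tmsb4x, Ctsb and Cd74.

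**Figure D1:**
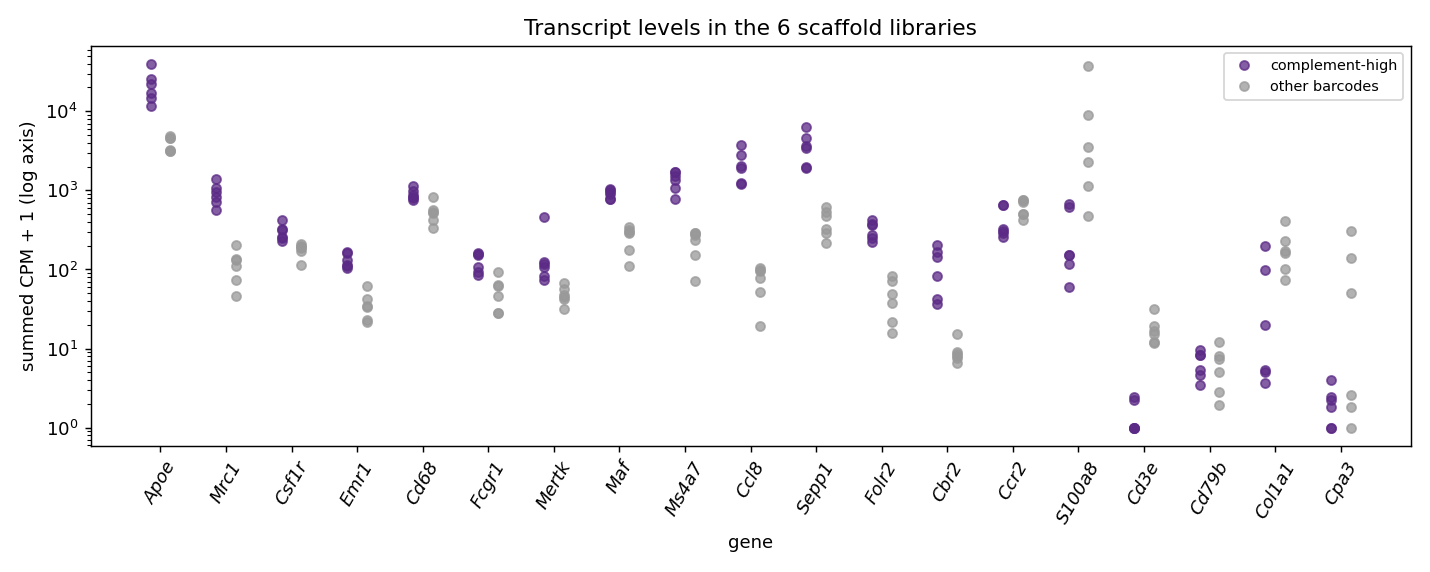
Summed CPM plus 1 (log axis) of 19 genes in complement-high barcodes (purple) and other barcodes (grey) of the scaffold, 1 point per library. Apoe, Mrc1, Ccl8 and Sepp1 of the members lie above every library of the other barcodes, and Cd3e is at 0 to 1.44 CPM in the members.

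Transcripts of other cell types were present at different levels. The T and NK cell list summed to 9.73 to 55.3 CPM per library in the members, against 216 to 607 CPM elsewhere. The dendritic cell list summed to 15.1 to 43.7 CPM and the mast cell list to 0 to 15.9 CPM. The T cell gene Cd3e was at 0 to 1.44 CPM. The B and plasma cell list summed to 93.2 to 211 CPM in the members. This was above the other barcodes in the healthy library of day 21 (142 against 133 CPM) and the tumour libraries of days 14 (185 against 99.5 CPM) and 21 (95.1 against 28.3 CPM). Of its 11 genes found, 3 were at 0 in the members of all libraries, Pax5 and Mzb1 among them. The other genes of the list were detected and carried the sum. The endothelial list summed to 121 to 226 CPM, above the other barcodes in 5 of 6 libraries. Most of that sum was Fabp4, a fatty acid binding protein that macrophages also make, at 109 to 217 CPM, and Pecam1, which marks endothelium, was at 0 to 3.64 CPM. The fibroblast list was at 535 CPM in the tumour library of day 7 and 605 CPM in the healthy library of day 14, against 29.2 to 81.9 CPM in the other 4, and 186 of the 194 Col1a1 UMIs in that tumour library came from 1 barcode. The neutrophil list is given below, where it moves with status.

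In the tumour libraries the members were 22.9% of kept barcodes at day 7 (306 of 1334, 95% interval 20.7% to 25.3%), 23.2% at day 14 (181 of 779, 20.3% to 26.4%) and 17.0% at day 21 (222 of 1309, 15.0% to 19.1%). In the healthy libraries they were 23.6% (176 of 747, 20.6% to 26.8%), 27.7% (453 of 1634, 25.6% to 29.96%) and 24.9% (319 of 1279, 22.6% to 27.4%). The intervals are exact binomial (Clopper-Pearson) and cover counting error only. The means were 21.0% ± 3.54 (SD, n = 3) and 25.4% ± 2.12 (SD, n = 3), the share was lower in the tumour library on 3 of 3 days, and the exact two-sided permutation p was 0.1, the smallest that 3 against 3 libraries allow.

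The order of the shares depended on the denominator and the depth. Among barcodes with under 2% of UMIs from S100a8 and S100a9, the members were 27.2%, 29.4% and 33.5% in the tumour libraries and 25.3%, 28.1% and 29.2% in the healthy ones, so that the tumour library was higher on 3 of 3 days (exact p = 0.4). With every barcode thinned to 500 UMIs (1025, 677 and 1159 tumour and 606, 1242 and 1102 healthy barcodes had that many) the shares were 12.6%, 9.31% and 11.7% in the tumour libraries and 7.43%, 20.9% and 15.3% in the healthy ones (exact p = 0.5), and the tumour share was lower at days 14 and 21 only. The same barcodes without thinning gave 28.3%, 26.1% and 18.3% and 27.4%, 32.7% and 28.6%.

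Without the members that held markers of other cells, the shares were 18.3%, 13.6% and 8.63% in the tumour libraries and 19.8%, 25.0% and 23.3% in the healthy ones, and the difference of the means moved from −4.36 to −9.20 percentage points (exact p = 0.1). These barcodes were taken out of the members but stayed among the kept barcodes. They were a larger part of the tumour members on each day, so leaving them out lowered the tumour share more. With a gate of 5 UMIs, with 400 genes per barcode or with all shared barcodes left out, the tumour share was the lower one on 2 of 3 days, the exception being day 7. With shared barcodes left out, the shares of day 21 were 16.4% in the tumour library and 18.8% in the healthy one. With barcodes compared only between scaffold libraries of a day, they were 16.7% and 18.2%. The difference of the means was then −2.44 percentage points (exact p = 0.4). Without day 21 the difference was −2.56 percentage points.

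**Figure D2:**
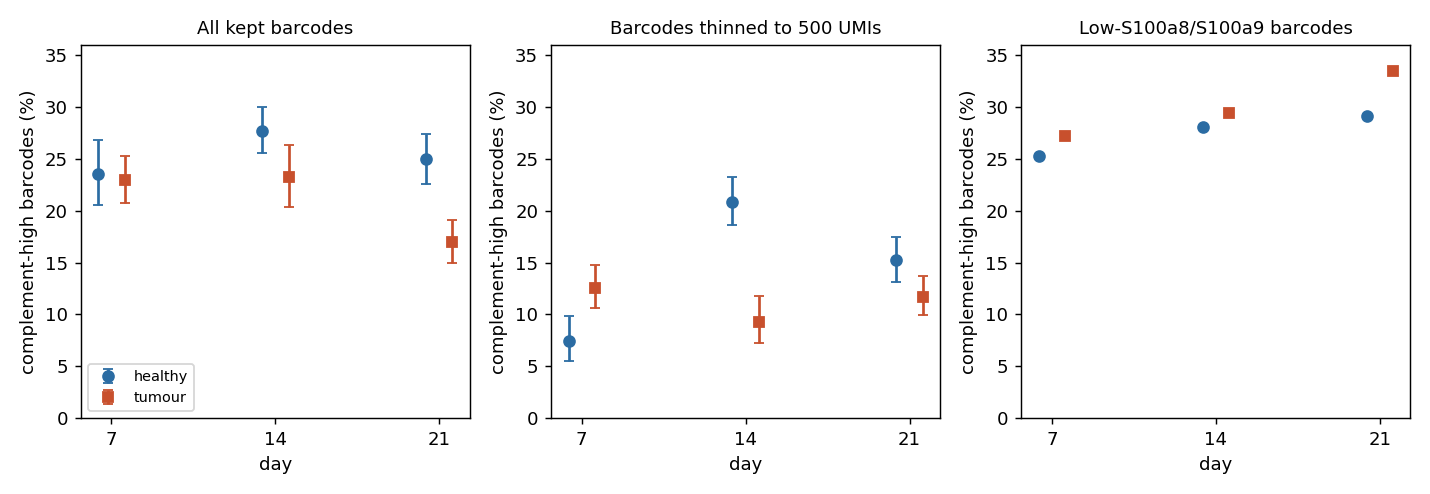
Percent of scaffold barcodes that passed the C1q gate by day, healthy (blue circles) and tumour (red squares), 1 library per point, over all kept barcodes, after thinning to 500 UMIs, and over barcodes low in S100a8 and S100a9. Bars in the left and middle panels are exact 95% binomial intervals and the right panel has none. The tumour point lies below the healthy one on each day in the left panel and above it in the right.

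Members were not uniform. For shares at matched depth, 1332 members were thinned to 1000 UMIs and 325 shallower ones were left out, 177 of them from the healthy library of day 14. Mrc1 was then seen in 49.4%, 50.6% and 59.5% of members in the tumour libraries of days 7, 14 and 21 and in 42.4%, 37.0% and 62.6% in the healthy ones (without thinning, 75.8%, 68.5%, 75.7% and 67.0%, 48.6%, 76.2%). Ccl8 was seen in 41.95%, 19.5% and 25.6% of the tumour members and 25.2%, 26.4% and 33.9% of the healthy ones (without thinning, 58.2%, 29.8%, 31.1% and 42.6%, 35.3%, 42.6%). A UMI of Ccl8, the gene with the leading ratio above, was thus not found in every member at either depth.

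Spp1 (osteopontin) and Gpnmb, genes of lipid-laden and foreign-body macrophages, were seen with 2 or more UMIs together in 51.7%, 35.1% and 25.6% of the thinned tumour members and in 46.4%, 35.1% and 25.6% of the healthy ones (without thinning, 68.3%, 51.4%, 42.8% and 63.1%, 33.1%, 37.9%). This share was lower at day 21 than at day 7 in both statuses. It was also lower among members with Mrc1 than among those without in 6 of 6 libraries, for example 14.7% of 116 against 41.8% of 79 in the tumour library of day 21 and 16.0% of 181 against 41.7% of 108 in the healthy one. Ccl8 followed Mrc1 instead, with 48.6% against 9.26% of the healthy and 37.9% against 7.59% of the tumour members of day 21, and it was higher with Mrc1 in 6 of 6 libraries. The resident genes Cbr2, Folr2, Lyve1 and Cd163 were together seen in 44.2% against 30.6% and 44.8% against 21.5% of the same groups. At days 7 and 14 these shares were 34.1% against 27.4% and 20.5% against 18.4% in the tumour libraries. In the healthy libraries they were 29.7% against 25.3% and 41.2% against 24.1%. These are counts of cells within libraries and carry no test.

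The first comparison asked whether the members differed between tumour-bearing and healthy mice. No gene passed the threshold of an adjusted p of 0.05 (edgeR's quasi-likelihood test with the day as a block, Benjamini-Hochberg adjustment): 0 of 7625 genes tested were called, or 0%. At an unadjusted p under 0.05, 101 genes were higher in tumour libraries (1.32%) and 108 lower (1.42%). DESeq2 called 3 genes, Ifitm1 higher and Mmp9 and Pla2g2d lower. On simulated counts of this design the test recovered 36% of genes changed by 1 on the log2 scale and 100% of genes changed by 2. The changed genes were drawn from the more abundant ones, and all genes had the same simulated scatter between libraries. These rates therefore do not hold for scarce genes or for genes that scatter more. The lists below are described by counts set beside the 1.32% and 1.42% above, and none of their genes passed adjustment.

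Antigen presentation genes were lower in the tumour members. Of 12 tested genes of the MHC class II and costimulation list 11 had a lower fitted level, 7 of them at an unadjusted p under 0.05, and 7 were lower on 3 of 3 days, against 11.6% of all genes. The list's median log2 difference was −0.67, beside 0.01 over all genes. H2-Aa, the class II alpha chain, was at 620, 1956 and 823 CPM in the tumour libraries of days 7, 14 and 21 and at 732, 2441 and 2185 CPM in the healthy ones (log2 difference −0.64, SE 0.24, unadjusted p = 0.0213). Cd74, the invariant chain, was at 1809, 5241 and 2561 CPM against 1944, 10112 and 6385 CPM (log2 difference −0.78, SE 0.25, unadjusted p = 0.0100). For both genes the tumour library was the lower one on each day, the gap was small at day 7, and the ranges of the statuses overlapped. Members thinned to 1000 UMIs were also scored for 2 or more UMIs of H2-Aa, H2-Ab1, H2-Eb1 and Cd74 together. Such members were 34.1%, 74.0% and 51.3% in the tumour libraries and 44.4%, 73.2% and 73.0% in the healthy ones. The tumour share was thus not lower at day 14. H2-Ab1 differed by −0.74 (SE 0.27), and Ctss, the protease that trims the invariant chain, by −0.10 (SE 0.21).

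The class II pattern rested largely on day 21. Without that day's libraries none of the 12 genes was lower at an unadjusted p under 0.05, and the list's median was −0.28. Without the barcodes that held markers of other cells, 4 of 11 tested genes were lower at that p, and the median was −0.56. In the other scaffold barcodes the list summed to 9132, 12294 and 3727 CPM in the tumour libraries and 10480, 17007 and 12895 CPM in the healthy ones. The sum was thus lower in the tumour library on each day there too. The make-up of these other barcodes differed, with a neutrophil list sum at day 21 of 104770 CPM (tumour) against 8331 CPM (healthy). How far neutrophils contribute to their lower class II sums was not tested.

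Genes induced by type I interferon, the antiviral cytokine family, were lower as well. All 18 genes of the list had a lower fitted level in the tumour members, 11 at an unadjusted p under 0.05, and 10 were lower on 3 of 3 days, with a median log2 difference of −0.70. Irf7, a transcription factor of this response, was at 40.9, 35.9 and 10.8 CPM in the tumour libraries and 77.0, 47.3 and 71.3 CPM in the healthy ones (log2 difference −1.22, SE 0.36), and its groups did not overlap. Isg15, a ubiquitin-like modifier, was at 40.4, 79.0 and 9.73 CPM against 72.5, 88.6 and 54.1 CPM (−0.97, SE 0.35). Ifi27l2a was the most abundant of them, at 2919, 893 and 812 CPM against 3149, 1290 and 2025 CPM. At 1000 UMIs per member, 2 or more UMIs of the list were seen in 64.4%, 45.45% and 28.7% of tumour members. In healthy members the shares were 70.2%, 47.8% and 65.7%, so the gap was wide at day 21 only. The remaining 8 genes, among them Ifi204 and Slfn5, were lower in the tumour library at days 7 and 21 but not at day 14.

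Without the libraries of day 21, 15 of the 18 interferon genes were still lower in the tumour members, but 2 at an unadjusted p under 0.05, and the median was −0.35. The 11 tested genes of the interferon gamma list all had lower fitted levels, 4 at an unadjusted p under 0.05, with a median of −0.52. That count was 0 of 11 without the libraries of day 21 and 0 of 11 without the day as a block. Among them Iigp1, a GTPase against intracellular microbes, was at 5.98, 37.3 and 7.56 CPM in the tumour libraries and 22.7, 32.8 and 57.3 CPM in the healthy ones. Psmb8, a subunit of the immunoproteasome, was at 228, 210 and 170 CPM against 299, 278 and 266 CPM, ranges that did not overlap. The other barcodes showed lower type I sums in the tumour library on each day too, with 465 against 2714 CPM at day 21. Neutrophil sums in those barcodes differed as given above, and their part in the type I sums was not tested. The tumour library of day 21, where the gap was widest, is also the one with 49.1% mixed members and with Fkbp5, a gene induced by glucocorticoids, at 135 CPM against 2.43 to 6.98 CPM in the other 5 libraries. Without mixed members 10 of 17 tested type I genes were lower at an unadjusted p under 0.05, and the part of Fkbp5-related differences was not tested.

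**Figure D3:**
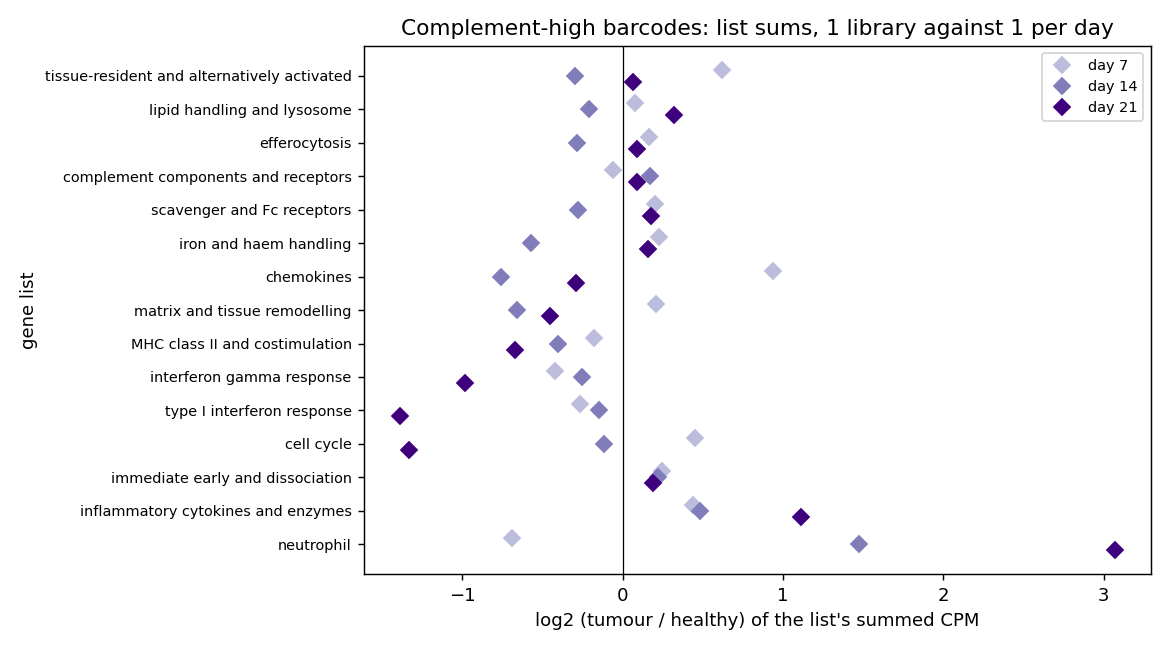
Log2 ratio of the summed CPM of each gene list in the complement-high barcodes, tumour over healthy, at days 7, 14 and 21 (light to dark), 1 library against 1 library per point. The 2 interferon lists and the MHC class II list lie left of 0 on each day, and the neutrophil list lies farthest right at day 21.

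The genes with the smallest unadjusted p of this comparison were Pla2g2d, Ifitm1, Mmp9, Stfa2l1 and Saa3. Pla2g2d, a secreted phospholipase of macrophages and dendritic cells, was at 25.4, 68.9 and 28.1 CPM in the tumour libraries and at 93.3, 164 and 84.4 CPM in the healthy ones (log2 difference −1.55, SE 0.24, adjusted p = 0.134). Its groups did not overlap, and the transcript was spread over 16 to 73 members per library. Mmp9, a gelatinase that is also stored by neutrophils, was at 6.48, 11.5 and 4.32 CPM against 128, 31.5 and 22.9 CPM (−3.10, SE 0.49, adjusted p = 0.134). Of its 141 UMIs in the healthy library of day 7, 118 came from 1 barcode.

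Ifitm1, an interferon-inducible membrane protein, and Stfa2l1 were higher in the tumour members. Ifitm1 was at 11.5, 46.0 and 65.9 CPM against 4.53, 2.43 and 3.28 CPM (3.40, SE 0.53, adjusted p = 0.134). Stfa2l1, a stefin of neutrophils, was at 11.0, 27.3 and 54.0 CPM against 3.62, 3.64 and 4.91 CPM (2.82, SE 0.46, adjusted p = 0.134). Both were far higher in the other barcodes of the tumour library of day 21, at 2610 and 3326 CPM.

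Saa3, an acute-phase apolipoprotein, was at 6.98, 53.1 and 1711 CPM in the tumour libraries of days 7, 14 and 21 and at 0, 15.8 and 8.19 CPM in the healthy ones (5.58, SE 1.02, adjusted p = 0.281). The high value is that of 1 library. There 68 of 222 members held 1583 Saa3 UMIs, 424 of them in a single barcode, and the other barcodes of that library were at 4421 CPM.

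Neutrophil transcripts were higher in the tumour members at days 14 and 21 and lower at day 7. The 16 genes of the neutrophil list summed to 311, 1237 and 2248 CPM in the tumour members and to 503, 445 and 268 CPM in the healthy members. In the other barcodes these sums were 9259, 20668 and 104770 CPM and 3699, 1342 and 8331 CPM. S100a8 was at 117, 620 and 678 CPM in the tumour members and at 150, 150 and 59.0 CPM in the healthy ones (log2 difference 1.76, SE 0.57, unadjusted p = 0.00986), and S100a9 differed by 1.61 (SE 0.51, unadjusted p = 0.00924). At 1000 UMIs per member, a UMI of either was seen in 12.7%, 46.8% and 55.4% of tumour members and 6.62%, 19.9% and 6.57% of healthy ones. With members so thinned, or with all shared barcodes left out, S100a8 and S100a9 passed the threshold. How far transcripts of neutrophils contribute to the values of Saa3, Ifitm1 and Stfa2l1 was not tested.

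Of the 19 tested genes of the list of resident and alternatively activated macrophages 9 had a higher and 10 a lower fitted level in the tumour members, 2 each at an unadjusted p under 0.05, with a median of −0.01. Retnla, a resistin-like secreted protein induced by interleukin 4, was at 0, 200 and 10.8 CPM in the tumour libraries and at 0, 505 and 486 CPM in the healthy ones (−2.88, SE 0.67, adjusted p = 1.00). No UMI of it was seen at day 7 in either status. In the healthy libraries 35 and 36 members carried it at days 14 and 21, against 4 and 2 in the tumour libraries, where 100 of the 139 UMIs of day 14 came from 1 barcode. Its log2 difference was −2.97 without day 7 (adjusted p = 0.0136), −5.38 without day 14 (adjusted p = 0.0083) and −1.37 without day 21 (adjusted p = 0.731), and over all alternatives the adjusted p ranged from 1.6e-15 with no filter on low counts to 1. Mgl2, a galactose lectin, was at 2.49, 12.9 and 5.40 CPM against 22.7, 32.8 and 25.4 CPM (−2.17, SE 0.42, adjusted p = 0.419), and its groups did not overlap.

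Mertk was higher in the tumour library on each day, at 108, 116 and 460 CPM against 81.6, 72.8 and 123 CPM (1.05, SE 0.30, unadjusted p = 0.00470), with 136 of 222 members positive at day 21. Mrc1 was likewise higher on each day. Of the 13 tested genes of the macrophage list 3 were higher on 3 of 3 days, against 9.60% of all genes, and 3 were lower. In the test 3 were higher and 2 lower at an unadjusted p under 0.05, the lower ones being Emr1 and Aif1, a calcium-binding protein of macrophages. Aif1 was at 367, 540 and 191 CPM in the tumour libraries and at 411, 645 and 446 CPM in the healthy ones.

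**Figure D4:**
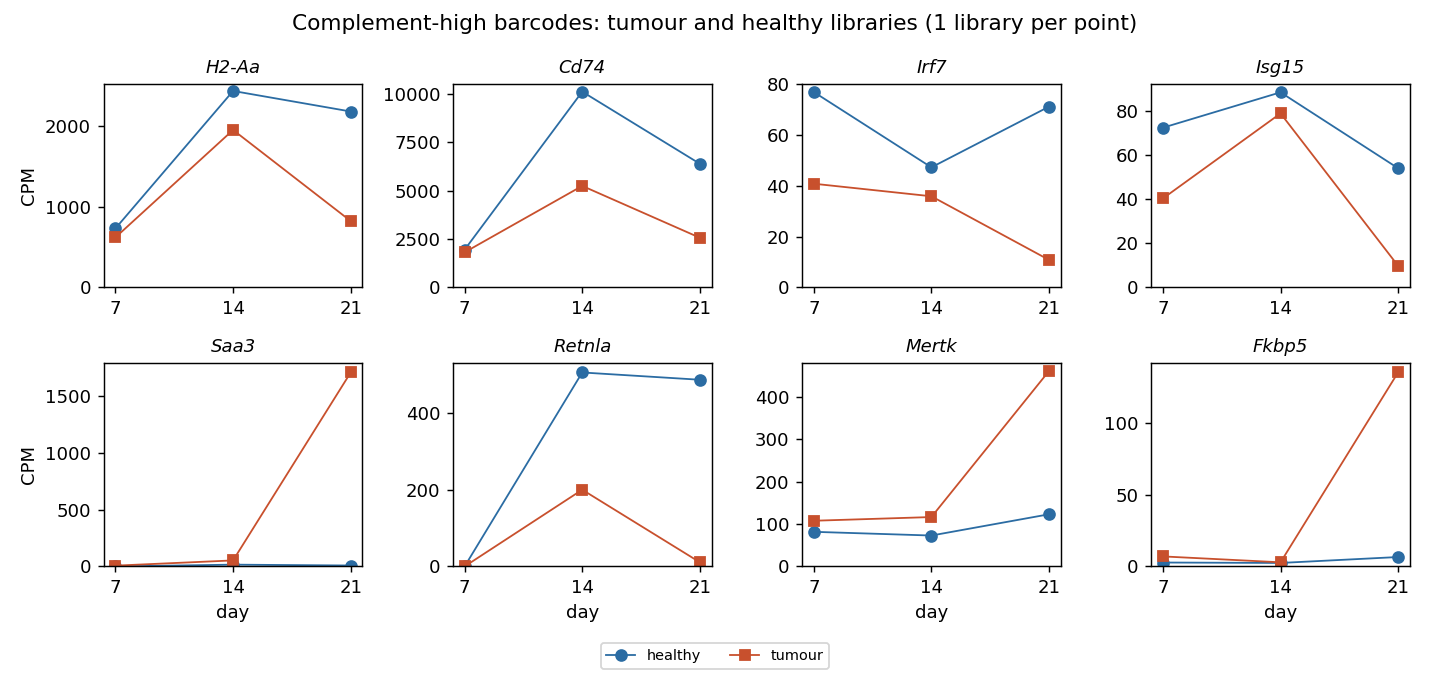
CPM in the complement-high barcodes at days 7, 14 and 21, healthy (blue circles) and tumour (red squares), 1 library per point, linear axes from 0. H2-Aa, Cd74, Irf7 and Isg15 are lower in the tumour library on each day, and the high Saa3, Mertk and Fkbp5 values are those of the tumour library of day 21.

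Other lists had fewer genes at an unadjusted p under 0.05 than the class II and type I lists. Of 27 tested genes of lipid handling and the lysosome 1 was higher at an unadjusted p under 0.05, Apoc2 (an apolipoprotein that activates lipoprotein lipase), at 32.4, 44.5 and 99.4 CPM in the tumour libraries and 17.2, 32.8 and 39.3 CPM in the healthy ones. The list's median was −0.01. Cathepsin B (Ctsb) was at 6885, 7401 and 7257 CPM against 6245, 9151 and 7045 CPM, and Lpl, the lipase itself, at 4471, 4856 and 3138 CPM against 5546, 3443 and 4115 CPM. None of the 12 tested complement genes outside C1q, none of the 13 chemokines and none of the 9 iron and haem genes reached that p in either direction. The chemokine list summed higher in the tumour library at day 7 and lower at days 14 and 21. Without day 7 all 13 chemokines had a lower fitted level, 5 at that p, and without day 21 there were 3 higher at that p. Among the complement genes, C3ar1, the receptor for the C3 fragment, was at 527, 619 and 615 CPM against 741, 455 and 531 CPM.

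Of 13 tested genes of dying-cell uptake 2 were higher, Mertk and Cd300lf. Of 14 scavenger and Fc receptor genes 2 were higher, Cd163 and Clec4d. Of 12 inflammatory genes 3 were higher, Saa3, Clec4e and Il1b, the last at 102, 90.5 and 187 CPM against 65.2, 47.3 and 166 CPM. In the matrix list 3 of 16 were lower, Mmp9, Plau (urokinase) and Dcstamp (a gene of macrophage fusion), the last at 3.49, 7.18 and 1.08 CPM against 29.0, 10.9 and 12.3 CPM. Mmp12, the macrophage elastase, was at 2621, 2235 and 1897 CPM in the tumour libraries and 1941, 4150 and 3013 CPM in the healthy ones. These counts use the unadjusted p of 0.05, beside 1.32% of all genes higher and 1.42% lower, and none passed adjustment. Without mixed members none of 7 tested inflammatory genes was higher at that p, and 1 of 11 matrix genes was lower.

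Of 16 tested cell cycle genes 12 had a lower fitted level in the tumour members, 1 at an unadjusted p under 0.05, with a median of −0.58. Without day 7 there were 9 of 13 lower at that p and the median was −1.69, and without day 21 none was lower at that p and the median was 0.05.

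The second comparison asked how the members differed with day, as a slope per 7 days with status as a term. No gene passed the adjusted threshold (edgeR, 0 of 7625, or 0%), while 168 genes were higher with day at an unadjusted p under 0.05 (2.20%) and 182 lower (2.39%). DESeq2 called 6 genes, all higher with day: Cd163, Clec10a, C4b, Sepp1, Btg2 and Jun. On simulated counts edgeR recovered 34% of genes with a slope of 0.5 and 98% of genes with a slope of 1. The limits given above for the simulation apply, and its scatter was below the common scatter fitted for this comparison. Each day is a separate library of each status, and the mice were older at each later day. Effects of day, of age and of library preparation therefore cannot be told apart.

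Genes of resident and alternatively activated macrophages stood higher at later days. Of 19 tested genes of that list 15 had a positive slope, 8 at an unadjusted p under 0.05, and 14 were higher at day 21 than at day 7 in both statuses, against 28.2% of all genes. The list's median slope was 0.47, beside −0.01 over all genes. Without the healthy library of day 7 there were 5 genes at that p, and the median slope was 0.21. Cd163, the scavenger receptor for haemoglobin, was at 9.97, 17.2 and 168 CPM in the tumour libraries of days 7, 14 and 21 and at 3.62, 17.0 and 42.6 CPM in the healthy ones (slope 1.95, SE 0.25, adjusted p = 0.0501). The level was higher at each later day in both statuses. It came from few members, 23 of 222 and 29 of 319 at day 21. Without the tumour library of day 21 the slope was 1.46 (adjusted p = 1.00), without that of day 7 the adjusted p was 0.428, and over all alternatives it ranged down to 3.8e-13.

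Lyve1, a hyaluronan receptor of perivascular macrophages, was at 9.47, 24.4 and 111 CPM in the tumour libraries and 0, 47.3 and 111 CPM in the healthy ones (slope 2.08, SE 0.36, adjusted p = 0.227). At most 29 members of a library held it. Clec10a, a galactose lectin, was at 33.9, 25.9 and 223 CPM and 25.4, 64.3 and 131 CPM (1.30, SE 0.24, adjusted p = 0.227), carried by 75 members in each library of day 21. Vcam1, an adhesion molecule that marks macrophages of the splenic red pulp, was at 10.5, 14.4 and 67.0 CPM and 1.81, 10.9 and 18.8 CPM (1.39, SE 0.25, adjusted p = 0.227).

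Sepp1 and Apoe, both among the genes of highest ratio in the members, were higher at each later day in both statuses, while Ccl8 and Ms4a7 were not. Sepp1 was at 1958, 3483 and 6400 CPM in the tumour libraries and 1905, 3609 and 4531 CPM in the healthy ones (0.75, SE 0.18, adjusted p = 0.582). C4b, the complement protein that C1s cleaves, was at 11.0, 7.18 and 53.0 CPM and 3.62, 8.49 and 68.0 CPM (1.59, SE 0.29, adjusted p = 0.227), and its level in the other barcodes was also highest at day 21, at 41.3 and 104 CPM. Arg1, arginase, went the other way, at 72.8, 24.4 and 30.3 CPM and 197, 7.28 and 17.2 CPM.

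Spp1 was at 4452, 1687 and 1972 CPM in the tumour libraries and at 3522, 2582 and 2176 CPM in the healthy ones. Ctsk (cathepsin K) was at 862, 681 and 659 CPM and at 1037, 611 and 306 CPM, and Cd9, a tetraspanin, at 673, 455 and 385 CPM and at 733, 667 and 371 CPM. In both statuses these 3 genes stood highest at day 7. Their list of lipid handling and the lysosome had no common direction, with 15 of 27 positive slopes, 3 genes higher and 3 lower at an unadjusted p under 0.05 and a median slope of 0.04.

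**Figure D5:**
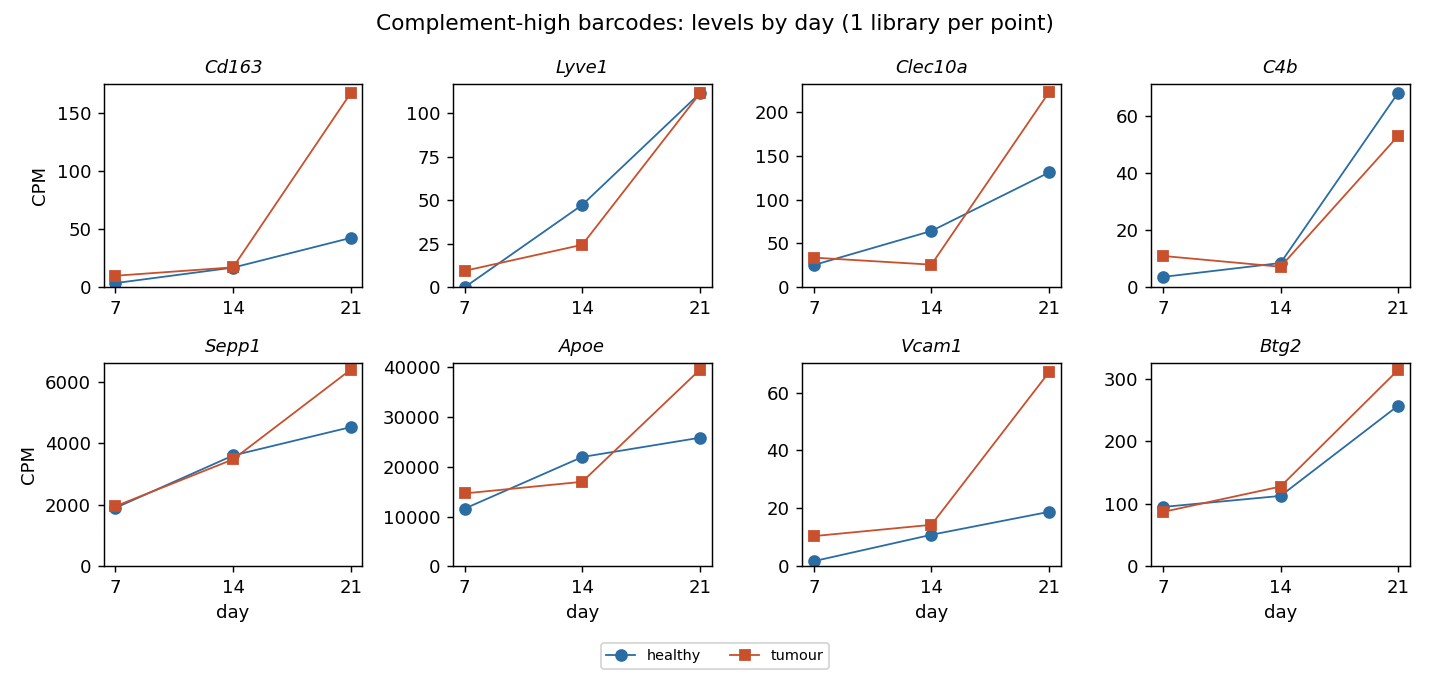
CPM in the complement-high barcodes by day, healthy (blue circles) and tumour (red squares), 1 library per point, linear axes from 0. Cd163, Sepp1, Apoe and Vcam1 are higher at each later day in both statuses, and all 8 genes are highest at day 21 in the tumour libraries.

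The immediate early genes, which respond within minutes to stress and tissue dissociation, stood higher at day 21 in both statuses. Of 16 tested genes 15 had a positive slope, 12 at an unadjusted p under 0.05, and 15 were higher at day 21 than at day 7 in both statuses. Fos was at 1242, 919 and 2977 CPM in the tumour libraries and 1016, 806 and 2266 CPM in the healthy ones. Jun was at 814, 938 and 2033 CPM and 517, 688 and 1583 CPM (slope 0.74, SE 0.15, adjusted p = 0.416), and Btg2 at 87.2, 128 and 315 CPM and 95.2, 113 and 257 CPM (0.83, SE 0.15, adjusted p = 0.227). The same list summed to 13648 and 8635 CPM in the other barcodes of day 21, against 4391 to 6574 CPM at days 7 and 14, so the pattern was shared by cells outside the gate. Whether it contributes to the resident genes above was not tested.

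Cell cycle genes stood lower at later days. All 16 tested genes had a negative slope, 8 at an unadjusted p under 0.05, and 11 were lower at day 21 than at day 7 in both statuses, against 32.6% of all genes. Mki67, the proliferation antigen, was at 410, 113 and 3.24 CPM in the tumour libraries and 218, 69.2 and 206 CPM in the healthy ones. Top2a, topoisomerase of dividing cells, was at 290, 46.0 and 14.0 CPM and 204, 118 and 172 CPM. The drop in members with Mki67, without thinning, was larger in the tumour libraries, a difference that was not tested: 65 of 306 members held Mki67 at day 7 and 2 of 222 at day 21, against 26 of 176 and 23 of 319 in the healthy ones. At 1000 UMIs per member, 2 or more UMIs of the whole list were seen in 26.6%, 18.8% and 11.3% of tumour members. In healthy members the shares were 25.2%, 17.8% and 14.5%, a fall in both statuses. Without the tumour library of day 21 the list had 2 of 18 genes lower at an unadjusted p under 0.05, and without the barcodes that held markers of other cells 1 of 14.

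Chemokine genes had a positive slope in 12 of 13 cases, 4 at an unadjusted p under 0.05, among them Ccl9 at 685, 490 and 1238 CPM in the tumour libraries and 640, 997 and 1182 CPM in the healthy ones. Ccl8 was no part of this, at 3780, 1237 and 1902 CPM and 1212, 2010 and 2801 CPM, highest at day 7 in one status and at day 21 in the other. Without the healthy library of day 7, none of the 13 chemokine genes was higher at that p. MHC class II and costimulation genes had a positive slope in 11 of 12 cases, 3 at an unadjusted p under 0.05, and 7 were higher at day 21 than at day 7 in both statuses. Without the healthy library of day 7 none of the 12 reached that p and the median slope moved from 0.48 to 0.03, and without mixed members none of 11 did.

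The third comparison asked whether the tumour effect in the members differed from that in the other scaffold barcodes. A single gene of 9149 passed the adjusted threshold, on the lower side (0.0109%): Ngp, a granule protein of immature neutrophils (difference of the log2 effects −7.12, SE 0.63, adjusted p = 0.00272, edgeR's quasi-likelihood test). In the other barcodes Ngp was at 1.37, 366 and 2395 CPM in the tumour libraries of days 7, 14 and 21 and at 0, 18.6 and 0.539 CPM in the healthy ones. In the members it was at 0, 8.62 and 20.5 CPM and at 0, 25.5 and 0 CPM, never more than 2 UMIs in a barcode.

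The next 4 genes by unadjusted p were also lower on this scale: Mmp8 (−3.32, SE 0.48, adjusted p = 0.0815), Cxcl13 (−3.83, SE 0.64, adjusted p = 0.298), Ltf (−4.93, SE 0.90, adjusted p = 0.298) and Mmp9 (−3.13, SE 0.58, adjusted p = 0.298). Mmp8 and Ltf, a collagenase and lactoferrin, are stored in neutrophil granules, and Cxcl13 is a chemokine for B cells. At an unadjusted p under 0.05, 164 genes were higher and 340 lower in the members' effect. When barcodes with 2% or more of their UMIs from S100a8 and S100a9 were taken out of the other cells, Ngp differed by −0.73 (adjusted p = 1.00) and no gene passed. Without the libraries of day 14 Ngp differed by −4.95 (adjusted p = 1.00).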

How the data were processed

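Drop-seq libraries were made from scaffold, lung and spleen cell suspensions, 18 libraries in all, with roughly 1000 STAMPs (beads that had captured RNA in a droplet) taken into amplification for each, per the labels' protocols. The authors deposited unnormalised UMI counts for each gene in each barcode, 1 table per library, with 22049 genes over all tables together. The submitters' processing notes name mm10 and Seurat version 2, while aligner and cell calling were not given in the sources used here. Barcodes with 200 or more genes and under 20% mitochondrial UMIs were kept, and a barcode found in several libraries of a day stayed only where its UMIs were at least 5 times the next. Counts were summed over the gated and the other barcodes of each library and tested with edgeR 4.0.16 (TMM, filterByExpr, quasi-likelihood F test, Benjamini-Hochberg at 0.05), with the C1q genes left out. Each SE is the absolute log2 difference or slope divided by the square root of its F statistic. DESeq2 1.42.0 was an alternative. The test was checked on simulated counts. The healthy and the tumour library of a day were paired because the design matched them in time. Deviations from the group means correlated at 0.233, 0.308 and 0.333 within days and at -0.321 to -0.037 between days, across genes (every same-day value above 0.1). The deviations of a status cancel out over its libraries, so positive values within days bring negative ones between days on balance. The contrast is thus in part fixed in advance. CPM are UMIs of 3′ transcript ends and were not scaled by gene length. Thinning drew UMIs without replacement with a fixed seed. The lists hold 385 genes, of which 373 matched a current symbol and 8 a former one.

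The members, lists and tests were chosen with earlier results of these data known. Named genes are the macrophage markers, the genes called or of smallest p in each comparison, up to 4 genes per list by mean CPM, and the leading genes of the gate. Other genes named (among them Retnla, Mgl2, Irf7, Isg15, Iigp1, Cd163, Aif1, Apoc2, Il1b, Btg2, Arg1, Ctsk, Cd9, Top2a, Dcstamp and Fkbp5) were chosen after their values were seen. A few listed genes are not reported here by name.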

Additional observations from a re-analysis of the deposited data

Results flagged for a closer look

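The tumour effect on Ngp differed between the complement-high and the other scaffold barcodes by a test of the difference itself (log2 −7.12 in the members relative to the other barcodes). The other barcodes of the tumour libraries of days 14 and 21 held 366 and 2395 CPM of this neutrophil granule gene, and the members 8.62 and 20.5 CPM. Ngp no longer passed the threshold when calprotectin-rich barcodes were taken out of the other cells, or without the libraries of day 14. Groups of 3 libraries are too small for a check of single outlying libraries.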

How the results depend on the processing

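With no replicate block for the day, the tumour effect again gave 0 called genes, but 0 of 12 MHC class II and 3 of 18 type I interferon genes were lower at an unadjusted p under 0.05. The tumour effect gave 3 calls with DESeq2, 41 with no filter on low counts, 2 with all shared barcodes left out, 1 with mixed barcodes left out and 2 after thinning to 1000 UMIs; leaving out a day gave 1 to 21 (21 without day 7, 1 without day 14, 2 without day 21). The change with day gave 6 calls with DESeq2, 118 with no filter, 12 for day 21 against day 7, 2 with mixed barcodes left out and 1 each with the gate of 5 UMIs, 400 genes per barcode, shared barcodes left out, merged barcodes or thinning; leaving out a library gave 0 to 54, the 54 without the healthy library of day 21. The difference of effects gave 2 calls with library totals or merged barcodes and 0 with calprotectin-rich barcodes left out; leaving out a day gave 0 to 19 (19 without day 7, 0 without day 14). Library totals moved the median difference of effects over all genes to 0.13. Thinning, merged barcodes, the fit without calprotectin-rich barcodes, the share without mixed barcodes and the list counts were chosen after seeing the data. The share difference of −4.36 percentage points became 2.53 over barcodes low in calprotectin. Of 350 further values for 29 named results, 279 kept direction and side of the threshold, 69 passed it in addition, 2 (both Ngp) no longer passed and none changed sign. The causes were not tested. Comparisons with gated lung and spleen cells were not run, since 0 and 1 of their libraries held 20 or more members.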

Other observations

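Genes that glucocorticoids are known to induce stood apart in the tumour library of day 21. Fkbp5, a co-chaperone of the glucocorticoid receptor, was at 135 CPM there, with a UMI in 75 of 222 members and at most 5 in any of them, against 2.43 to 6.98 CPM in the other 5 libraries. Tsc22d3 (GILZ) was at 179 CPM against 36.4 to 58.9 CPM, and Klf9 at 169 CPM against 23.6 to 38.8 CPM. Zbtb16 and Ddit4 were at 27.0 and 22.7 CPM against at most 1.21 and 2.87 CPM, and Per1 at 21.6 CPM against at most 7.37 CPM. Sgk1, also on this list of 9 genes, was not apart, at 131 CPM against 87.4 to 144 CPM, nor was Nfkbia, at 344 CPM against 241 to 439 CPM. In the other scaffold barcodes of the same library Fkbp5 was at 106 CPM, against 5.50 to 16.4 CPM in the other 5. The list was drawn up after the values were seen, and a single library has no test.

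Mitochondrial transcripts summed to 71382, 96197 and 93657 CPM in the tumour members of days 7, 14 and 21 and to 78358, 45744 and 70124 CPM in the healthy ones. Ribosomal protein transcripts summed to 100959, 87266 and 80602 CPM and to 100986, 88305 and 80999 CPM.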
